A study of Mus musculus with 2 samples.

Results

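The strongest distal accessible sites are 500 stretches of open chromatin of mouse frontal cortex, chosen by their own DNase I signal. Peaks of replicate 1 were kept where they overlapped a peak of replicate 2 by at least 1 bp, lay on an autosome and had a midpoint more than 5 kb from every annotated transcription start site (TSS). They were then ranked by the highest cleavage density of replicate 1, a read-depth normalised signal set by the authors, and the first 500 of 14782 were kept. The 14782 shared distal sites came from 42099 replicate 1 peaks that replicate 2 shared, out of 50261 peaks of replicate 1 in all. DNase-seq was done on frontal cortex of male B6CASTF1/J mice, the first-generation cross of C57BL/6J with CAST/EiJ, aged 10 days and without any stated treatment. The 2 libraries were labelled biological replicates 1 and 2 of 1 group. A label note reads 3x male for both, which does not say whether tissue of 3 animals was pooled, and both point to 1 donor entry. With 1 group and 2 libraries there was no condition to compare, no test was run, and differences between the libraries may be technical or biological. The density ranking used replicate 1, so replicate 1 densities below describe the choice and support nothing. Whole tissue was used, so a site open in few cells of a type and a site less open in each cell cannot be told apart.

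DNase I cuts DNA where nucleosomes are displaced, and a bound protein leaves a short protected stretch inside the cut region, called a footprint. Accessible sites far from a TSS include enhancers, which act on promoters at a distance, and CTCF-bound elements, which take part in chromatin loop anchoring. They also include promoters of transcripts that an annotation does not list, and genes read by RNA polymerase III, such as tRNA genes. In the postnatal cortex, enhancers near activity-regulated genes such as Fos are a much studied class of distal site.

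The windows of 6 members are shown because they stand for the kinds of site the results turn on: the strongest site, the strongest CpG-rich site, the strongest site in a tested forebrain enhancer, the strongest site near Fos, the strongest at a tRNA gene and the strongest with a CTCF consensus. Each is 151 bases around the peak midpoint, plus strand, mm10. In site names, near a gene means that its TSS was the nearest, of any kind or among protein-coding genes, at any distance. The Irf2bp2 TSS lay 72633 bp from its site and the Chd2 TSS 76737 bp, and a TSS of Gm44738 was closer to the latter site. Capitals mark bases inside footprints of both libraries.
Rank 1, Cers5 exon, chr15:99735794-99735944: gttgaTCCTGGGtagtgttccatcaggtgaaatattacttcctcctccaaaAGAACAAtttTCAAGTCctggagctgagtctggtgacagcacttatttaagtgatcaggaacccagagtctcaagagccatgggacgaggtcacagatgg
Rank 2, near Trappc9, chr15:73067571-73067721: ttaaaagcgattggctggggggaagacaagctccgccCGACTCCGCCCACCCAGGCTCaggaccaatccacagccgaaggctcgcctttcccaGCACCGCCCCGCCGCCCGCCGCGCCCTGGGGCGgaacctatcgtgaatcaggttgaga
Rank 11, near Irf2bp2, chr8:126666544-126666694: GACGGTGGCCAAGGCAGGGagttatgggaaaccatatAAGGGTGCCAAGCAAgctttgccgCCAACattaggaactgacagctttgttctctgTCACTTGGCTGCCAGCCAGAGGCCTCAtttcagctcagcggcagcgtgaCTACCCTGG
Rank 25, near Fos, chr12:85455306-85455456: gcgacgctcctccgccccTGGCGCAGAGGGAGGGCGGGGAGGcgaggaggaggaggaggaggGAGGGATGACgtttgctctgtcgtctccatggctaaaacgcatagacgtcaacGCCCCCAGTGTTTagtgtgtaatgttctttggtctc
Rank 29, tRNA gene n-TRccg1, chr11:107012696-107012846: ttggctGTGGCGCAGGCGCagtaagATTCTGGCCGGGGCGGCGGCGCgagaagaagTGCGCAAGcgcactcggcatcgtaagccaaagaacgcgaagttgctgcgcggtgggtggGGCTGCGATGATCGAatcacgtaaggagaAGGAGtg
Rank 30, near Chd2, chr7:73618408-73618558: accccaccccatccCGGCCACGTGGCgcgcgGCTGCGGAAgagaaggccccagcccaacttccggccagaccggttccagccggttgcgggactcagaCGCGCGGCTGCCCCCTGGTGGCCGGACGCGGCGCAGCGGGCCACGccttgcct
Footprints of both libraries covered 21 bases of the rank 1 window and 75 bases of the window near Irf2bp2. The tRNA, Fos and CTCF windows had 63, 47 and 66 such bases, and the Trappc9 window 54.

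The strongest site lies in an exon of Cers5, a ceramide synthase gene, at chr15:99735674-99736064, 10251 bp from the nearest TSS, that of Cox14. Its density was 30.6 in replicate 1 and 29.7 in replicate 2, and it ranked first in both. Replicate 1 density there was 1.58 times that of rank 2. Its window had 46.4% GC, under the members' median of 58.9%, and held matches to the E-box of proneural factors, the MEIS word and the PU.1 word. Rank 2, at chr15:73067458-73067834 and 6442 bp from a TSS of Trappc9, had densities of 19.4 and 13.5 in replicates 1 and 2. Rank 3 lies in an exon, within the bodies of the genes A430078I02Rik and C87436, with 18.7 and 10.9. Rank 4, in an exon and within the bodies of 9330198N18Rik and Gm14486, had 18 and 14.2.

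Ranks 5 to 10 were in other settings again. Rank 5, at chr15:85634491-85634855, had Wnt7b, a Wnt ligand gene, as its nearest protein-coding gene at 52200 bp, and densities of 16.8 and 9.60. Its nearest TSS of any kind, that of Gm49539, lay 11410 bp away. In RefSeq, an annotation that the rule did not use, a transcript of D130051D11Rik starts 77 bp from its midpoint. Rank 6, in an exon of Lars2, a mitochondrial leucyl-tRNA synthetase gene, had 16.5 and 8.50. Ranks 7 and 8 were nearest to Cirbp, a cold-inducible RNA-binding protein gene, and to Ccne1, the cyclin E1 gene. Rank 7 had densities of 16.3 and 11.7, and rank 8 had 15.9 and 11.6. Rank 9, in an intron of Gm26745 with Morn3 as nearest protein-coding gene, had 15.8 and 11.5, and rank 10, with Ptma nearest, had 15.5 and 8.13. The densities of these 10 sites were lower in replicate 2 in every case.

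Over the 500 members replicate 1 density ran from 3.37 to 30.6 with a median of 4.33, beside a median of 1.14 over all shared distal sites. The threshold fell within a tie: 5 sites shared the density of rank 500, and their order followed chromosome name and position. Rank 500, near Shisa4, had 3.37, and the first 2 sites outside, near Sp9 and Shf, had 3.37 each. The replicate 2 density was 2.28 at rank 500 and 1.59 and 2.09 at the sites outside.

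The replicate 2 density was not used in the ranking. Its median was 3.12 in the members, 2.09 at ranks 501 to 1000 and 0.920 over all shared distal sites. Replicate 2 ranked 366 of the 500 members within its first 500 and 464 within its first 1000, and the lowest-placed member stood at rank 2687. When the rule was started from replicate 2 instead, 363 members (72.6%, 95% Wilson interval 68.5% to 76.3%) overlapped the strongest 500 sites it gave. Spearman's rho between the densities of the 2 libraries was 0.808 across the 14782 sites and 0.739 across the members. These are descriptions across sites of the same pair of libraries. Density was lower in replicate 2 at 479 members and higher at 21.

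**Figure D1:**
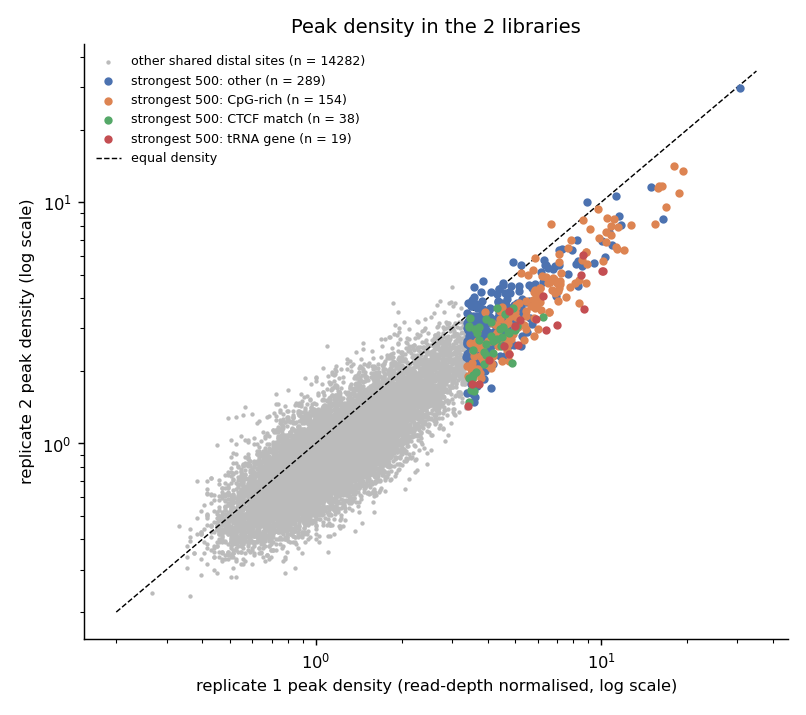
Peak density in replicate 1 (x) and replicate 2 (y), both on log axes, for 14782 shared distal sites. The 500 strongest are coloured by kind (a site of several kinds as tRNA gene first, then CpG-rich, then CTCF match), the dashed line marks equal density, and 479 of the 500 lie under it.

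The median replicate 2 to replicate 1 ratio was 0.685 in the members and 0.792 over all shared distal sites. Choosing on replicate 1 lowers this ratio in the members by construction. The largest ratios were at sites near Adra1a (3.58 and 4.44 in replicates 1 and 2), Zbtb16 (3.85 and 4.71), Nr1d1 (6.67 and 8.12), Nyap1 (4.91 and 5.63) and Nol4 (8.90 and 10.1). Adra1a encodes an adrenergic receptor, and Nr1d1 encodes the clock repressor REV-ERB alpha. The smallest ratios were at sites near Kif16b (4.11 and 1.69), Zfp536 (3.59 and 1.48), Pllp (8.70 and 3.62), Aurkb (3.41 and 1.43) and Prok2 (3.44 and 1.48). The Pllp and Aurkb sites both overlap a tRNA gene. Distances to the TSSs of these named genes were unlike. They were 140418 bp for Adra1a, 122115 bp for Zfp536, 95595 bp for Zbtb16 and 78047 bp for Prok2, but 5202 bp for Aurkb.

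Nearly every member carried footprints in both libraries. A footprint lay in all but 1 of the members in replicate 1 (99.8%) and in 498 in replicate 2 (99.6%), beside 91.7% and 95.7% of all shared distal sites. Both libraries had one in 498 members (99.6%), beside 88.8%, and the same 99.6% was found at ranks 501 to 1000. A replicate 1 footprint was found again in replicate 2, with 50% reciprocal overlap, in 491 members (98.2%), beside 61.4%. The median number per member was 4 in replicate 1 and 5 in replicate 2, beside 2 and 3. At ranks 501 to 1000 it was 4 in each library. Density also differed between these sets of sites, and its part in the footprint numbers was not tested. The hotspot around a member, a broader region of enriched cleavage, had a median width of 801 bp in replicate 1 and 776 bp in replicate 2, beside 447 and 455 bp over all shared distal sites. The second peak list of each library, made from the alignments, held 496 members in both libraries (99.2%), beside 69.5%. At ranks 501 to 1000 that share was 98.6%, and the median hotspot widths were 618 and 633 bp. Hotspots and second lists come from the same 2 libraries as the densities that members were chosen on. They are therefore no independent support for the members.

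Per-base false discovery rates (FDR) of the cut rate gave the shape of single sites. At the Cers5 site −log10 FDR peaked at 119.5 in replicate 1 and at 168.6 in replicate 2. The Trappc9 site had 115.6 and 102.2, and the Irf2bp2 site 77.0 and 105.4. Of these 6 sites the one near Fos differed most between the libraries, with 37.2 in replicate 1 and 118.8 in replicate 2, while its densities were 10.4 and 8.63. The tRNA site had 43.3 and 35.1, and the Chd2 site 48.3 and 42.1. These FDR values were made from the alignments and the densities from the reads, by separate runs of the authors. The hotspot around the Fos site did not show such a gap, with a highest −log10 FDR of 85.5 in replicate 1 and 78.6 in replicate 2.

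**Figure D2:**
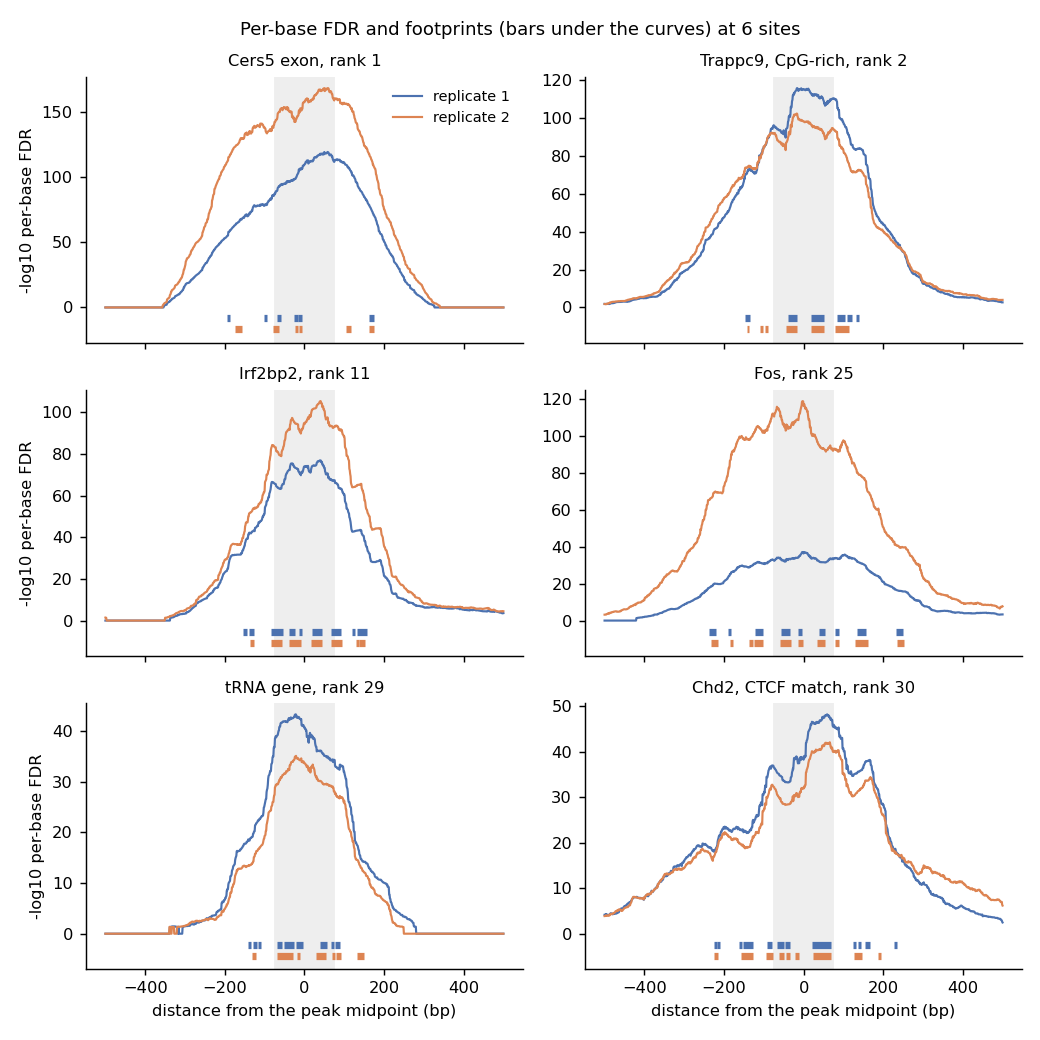
−log10 per-base FDR (y) against distance from the peak midpoint in bp (x) at 6 members, with replicate 1 in blue and replicate 2 in orange. Bars under the curves are footprints of each library, and the grey band is the 151-bp window; at the Fos site replicate 2 reached 118.8 and replicate 1 37.2.

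Members were rich in GC and CpG. The median GC content of the 151-bp window was 58.9%, beside 57.0% at ranks 501 to 1000 and 53.0% over all shared distal sites. A CpG-rich window, here 201 bp with at least 50% GC and a ratio of observed to expected CpG above 0.6, was present at 171 members (34.2%, interval 30.2% to 38.5%). With TSSs of protein-coding transcripts only, the share in the strongest 500 was 54.8%. Under the rule as set it was 19.2% at ranks 501 to 1000 and 6.55% over all shared distal sites. CpG-rich DNA is typical of promoters, where it is often kept free of methylation. Within the members the CpG-rich share went from 66 of the first 100 to 49, 25, 18 and 13 in the following sets of 100. Median GC went from 63.2% in the first 100 to 57.0% in the last 100. GC content affects library amplification, and its part in the density was not tested. CpG-rich members had a median density of 5.45 in replicate 1 and 3.53 in replicate 2, and the other 329 members had 3.97 and 3.01.

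**Figure D3:**
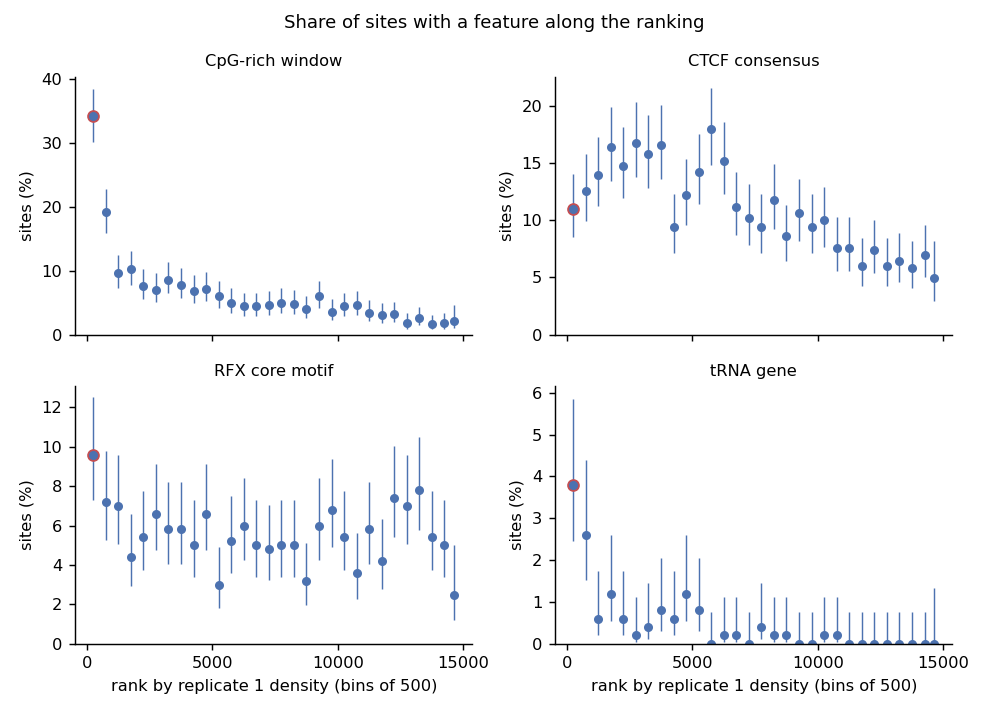
Share of sites in percent (y) with a CpG-rich window, a CTCF consensus, an RFX core motif or a tRNA gene, in bins of 500 along the ranking by replicate 1 density (x). Bars are 95% Wilson intervals, the red-ringed point is the strongest 500, and the CpG-rich share there was 34.2%.

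The 8-base words that differed most in share between the members and the other shared distal sites were listed as a description. The word CCCCGCCC was in 41 members (8.20%) and in 2.12% of the others. It belongs to the GC box bound by SP and KLF factors, as does the word GCCCCGCC with 37 members (7.40%) against 1.37%. The word ATTGGCTG was in 27 members (5.40%) against 1.11%, and the word GCCAATCA in 25 members (5%) against 0.854%. Both hold the CCAAT box, the binding site of NF-Y at many promoters. The other 6 of the first 10 words were GC-rich.

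By position, 310 members (62.0%) were intergenic, 163 (32.6%) intronic and 27 (5.40%) exonic, beside 52.2%, 43.9% and 3.92% of all shared distal sites. At ranks 501 to 1000 the intergenic share was 53.2%. It was 66% at ranks 14001 to 14500 and 73% in the last 282 sites, so a high share was not particular to the strongest sites. The median distance to the nearest TSS was 13708 bp in the members and 19262 bp over all shared distal sites. For protein-coding genes alone it was 27110 and 44348 bp. The strongest exonic site was the Cers5 site, the strongest intergenic the Trappc9 site, and the strongest intronic the Gm26745 site.

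The TSS set of the rule was GENCODE vM21, and RefSeq placed transcript starts at some of the members. A RefSeq start lay within 1 kb of 51 members (10.2%, interval 7.84% to 13.2%), beside 4.45% of all shared distal sites. A curated RefSeq start was that close at 18 members (3.60%), beside 0.636%, and at 11 of them within 100 bp. Among these were 3 members at the start of Gm38882 near Zfp239, the strongest at rank 13 with densities of 12 and 6.34. A pair of members lay at Zfp869, a zinc finger gene, at ranks 19 and 101, the first with 11.3 and 10.7. Others were at an alternative start of Ppfia4, a liprin gene, with 4.82 and 2.70, and at Gm36183 near Id4, an inhibitor of bHLH factors, with 7.05 and 4.28. These 18 members were distal under one annotation and near a curated start under the other. Without them and all other sites within 5 kb of a RefSeq start, the CpG-rich share of the strongest 500 was 29.0%, a setting added after the data were seen.

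tRNA genes are read by RNA polymerase III from promoters inside the gene. RefSeq placed a tRNA gene in 19 members (3.80%, interval 2.45% to 5.86%), beside 0.487% of all shared distal sites, 72 in number. The GENCODE set used by the rule holds no nuclear tRNA genes, so they counted as distal. The strongest was n-TRccg1, an arginine tRNA gene, at chr11:107012627-107012915, with densities of 10.2 and 5.19. Next came n-TTagt9, a threonine tRNA gene, with 10.1 and 5.17, and n-TLcag4, a leucine tRNA gene near Pllp, with 8.70 and 3.62. The histidine tRNA genes n-THgtg3 and n-THgtg4, both near Shf, had 8.63 and 6.05, and 6.24 and 4.09. Over the 19, density ran from 3.41 to 10.2 in replicate 1, with a median of 5.18, and from 1.43 to 6.05 in replicate 2, with a median of 3.09. Their median ratio of replicate 2 to replicate 1 was 0.514, beside 0.685 over all members. Without the choice of the strongest 500, it was 0.583 at the 72 tRNA sites, beside 0.792 over all shared distal sites. Among the strongest 500 by replicate 2 there were 11 such sites (2.20%), and the share in the strongest 250 was 6%. Of the 19, 17 had a CpG-rich window, and the median GC content was 56.3%.

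**Figure D4:**
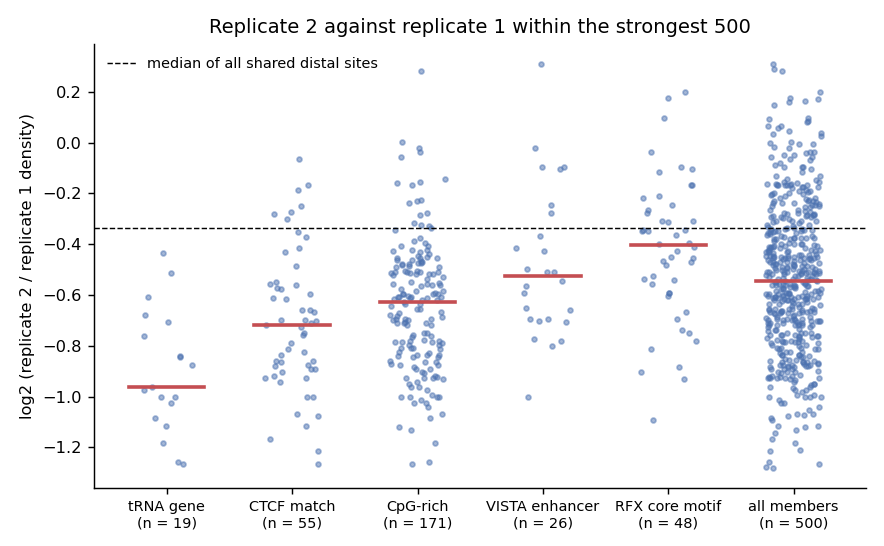
Log2 ratio of replicate 2 to replicate 1 density (y) for members of each kind (x); a member may be in several. Red lines are medians and the dashed line is the median of all shared distal sites; the tRNA median is −0.96 and that of all members −0.55.

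Sequence motifs were searched on both strands of the 151-bp window, by 23 fixed words or patterns, and a match is a description of letters, not of binding. RFX factors are winged-helix proteins with roles in ciliary and neuronal genes. Their core word GTTGCCA was in 48 members (9.60%, interval 7.32% to 12.5%), beside 7.20% at ranks 501 to 1000 and 5.63% of all shared distal sites. The share did not fall steadily along the ranking, with 3% at ranks 5001 to 5500 and 7.8% at ranks 13001 to 13500. The strongest matches were:
Rank 4, near Gm14486, chr2:30658617-30658643, plus strand: ccgcgagcccGTTGCCAcggcgaccgg
Rank 27, near Sox12, chr2:152406299-152406325, minus strand: ccaggccttgGTTGCCAagggaacggc
Rank 52, near Tob1, chr11:94160552-94160578, minus strand: tttgcaatgcGTTGCCAaggcagtgag
Rank 52, near Tob1, chr11:94160633-94160659, minus strand: tgatgtcatcGTTGCCAtggaaactct
Rank 54, near Bbc3, chr7:16299865-16299891, minus strand: actcgccgccGTTGCCAggggaaactc
Rank 55, near Syt3, chr7:44405852-44405878, plus strand: tggaagcagaGTTGCCAtgacaacgcg
Capitals mark the core, with 10 bases to each side, read on the strand of the match. The rank 52 window near Tob1 held it in 2 places. Of 61 matches in members, 46 (75.4%) were at least 50% inside a footprint of each library, beside 32.0% over all shared distal sites. Footprints covered 33.7% and 35.9% of the members' window bases in replicates 1 and 2, and 16% and 19.1% of those of all shared distal sites. The part of this coverage in the footprint shares of RFX, and of the CRE, SP and KLF, CTCF and other matches below, was not tested. A core followed by A also holds the nuclear factor I (NFI) word TTGGCA on the other strand.

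The cyclic AMP response element (CRE) TGACGTCA, bound by CREB and ATF factors, was in 14 members (2.80%, interval 1.68% to 4.64%), beside 0.474%. It was shown at these sites because the word is the textbook link between neuronal activity and transcription:
Rank 3, in C87436, chr6:86472410-86472437, plus strand: ctgcgggtggTGACGTCAccggggttcc
Rank 16, near Tex44, chr1:86434551-86434578, plus strand: gacggccgggTGACGTCAgtccattgag
Rank 31, near Itpkb, chr1:180387629-180387656, plus strand: ccccggagccTGACGTCAtggaaaggcg
Rank 3 had densities of 18.7 and 10.9, rank 16 11.4 and 7.91, and rank 31 10.1 and 6.92. Of the 14 matches, 11 lay in footprints of both libraries (78.6%), beside 53.4%. At ranks 501 to 1000 the CRE was in 4 sites (0.800%). Of the 14 members with a CRE, 8 had a CpG-rich window.

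Other words at higher shares, grouped here after their values were seen, were those of NRF1, ETS, EGR and SP and KLF factors. These words and the CRE all hold CG, and a CpG-rich window was at 34.2% of members, beside 6.55% of all shared distal sites. The YY1 word AAGATGGCG also holds CG but was in no member, beside 0.257%. The part of base composition in these shares was not tested. NRF1, a regulator of nuclear genes for mitochondrial function, had its pattern in 16 members (3.20%), beside 0.304%, and 13 of the 16 were among the first 150 ranks. Members with this pattern at ranks 29, 32, 95, 108 and 146 also overlap a tRNA gene, so the 2 groups share sites. The ETS word CCGGAAGT was in 10 members (2.00%), beside 0.244%, and the EGR word GCGTGGGCG in 5 (1.00%), beside 0.196%. The SP and KLF word GGGGCGGGG was in 17 members (3.40%), beside 1.27%, and 17 of its 18 matches (94.4%) lay in footprints of both libraries, beside 34.8%. The other words of this group did not differ as much from all shared distal sites. In footprints of both libraries lay 12 of 17 NRF1 matches (70.6%, beside 66.0%) and 4 of 5 EGR matches (80%, beside 72.4%). For ETS it was 1 of 10 matches (10%), beside 13.9%. At ranks 501 to 1000 the NRF1 and ETS shares were 0.400% each.

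The other words had shares near or below the background. The NFI word TTGGCA was in 76 members (15.2%), beside 18.8%. The proneural E-box CAGATGG was in 46 (9.20%), beside 11.0%, and the E-box word CAGCTGC was in 47 (9.40%), beside 11.2%. AP-1, the dimer of Fos and Jun, had its word in 18 (3.60%), beside 5.77%, and MEIS its word in 18 (3.60%), beside 4.80%. The homeodomain word CTAATTA was in 2 (0.400%), beside 1.22%. Shares for SOX, POU and TEAD were 2.20%, 1.40% and 2.00%, beside 1.68%, 1.10% and 2.06%. Those for MEF2, PU.1 and the nuclear receptor word were 0.800%, 1.00% and 1.00%, beside 0.555%, 1.33% and 1.07%. The T-box word was in 0.400%, beside 0.541%. No member held the YY1 word, the REST pattern or the paired NFI pattern, which were in 0.257%, 0.0135% and 0.129% of all shared distal sites. A count of 0 of 500 allows a share of up to 0.6%, taken as 3 sites, and the Wilson upper limit drawn in the plot of motif shares is 0.762%.

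**Figure D5:**
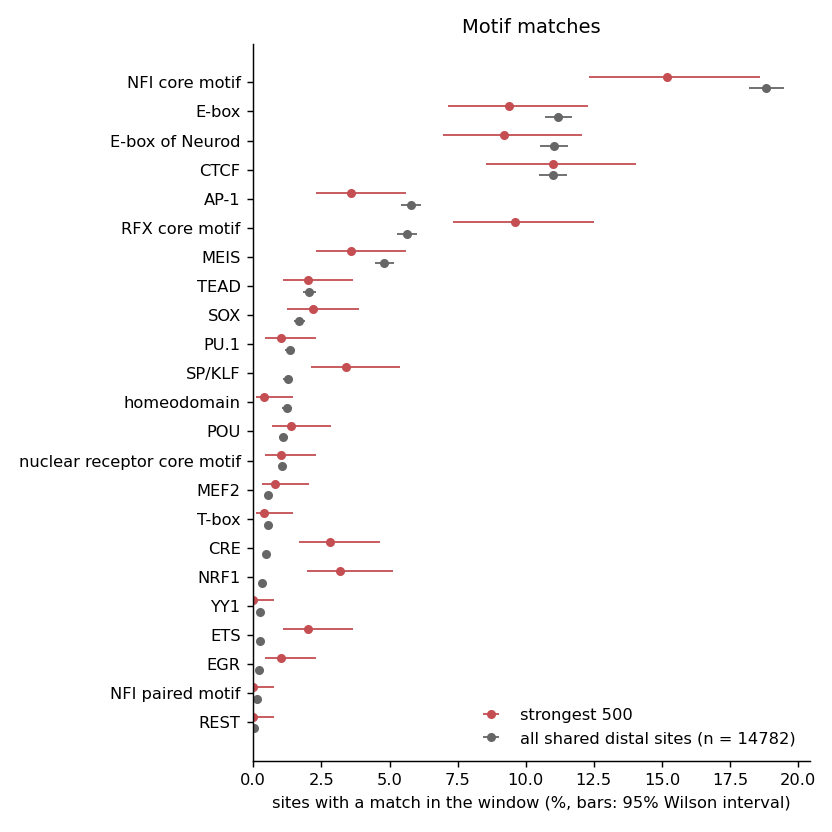
Share of sites in percent (x) with a match to each of 23 motifs (y), for the strongest 500 (red) and all 14782 shared distal sites (grey), with 95% Wilson intervals. RFX, CRE, NRF1, ETS and SP/KLF lie to the right of the grey points, and AP-1 to the left.

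CTCF was the most frequent pattern after NFI, and its share varied along the ranking. The consensus was in 55 members (11.0%, interval 8.55% to 14.0%), the same 11.0% as over all shared distal sites. With 1 mismatch allowed the shares were 27.6% and 26.8%. Along the ranking the share was 12.6% at ranks 501 to 1000, 18% at ranks 5501 to 6000 and 4.96% in the last 282 sites. In the first 100 members 5 held it. The strongest matches, on the strand of the consensus and with the consensus in capitals, were:
Rank 30, near Chd2, chr7:73618505-73618536, minus strand: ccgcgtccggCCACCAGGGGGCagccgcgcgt
Rank 41, near Stard10, chr7:101310780-101310811, plus strand: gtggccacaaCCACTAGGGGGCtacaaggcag
Rank 42, near Pllp, chr8:94704202-94704233, plus strand: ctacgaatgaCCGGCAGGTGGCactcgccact
Rank 70, near Trpv4, chr5:114667711-114667742, minus strand: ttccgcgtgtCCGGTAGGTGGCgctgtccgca
Rank 94, in Myo18a, chr11:77793340-77793371, minus strand: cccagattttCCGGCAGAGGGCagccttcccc
The Chd2 site had densities of 10.2 and 5.69, the Stard10 site 8.83 and 4.65, and the Pllp site, also a tRNA site, 8.70 and 3.62. Of the 55 matches, 53 (96.4%) lay in footprints of both libraries, beside 80.6% of those in all shared distal sites. Members with the consensus had a median ratio of replicate 2 to replicate 1 of 0.607, and 33 of the 55 were also among the strongest 500 of replicate 2.

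Tested enhancers of the VISTA collection, DNA pieces assayed for reporter activity in transgenic mouse embryos and annotated in RefSeq, overlapped 26 members (5.20%, interval 3.57% to 7.51%), beside 1.24% of all shared distal sites. An entry active in forebrain overlapped 9 members (1.80%), beside 0.419%. Among sites with any entry, these were 9 of 26 members and 62 of all 183, so forebrain entries were not a larger part of the entries in the members. The strongest was mm1295 near Irf2bp2, active in forebrain in 6 of 9 embryos, with densities of 15.0 and 11.6. The next were mm1548 near Bhlhe41, a bHLH repressor gene, with 8.61 and 8.48, and mm1496 near Tob1, with 8.26 and 6.97. Forebrain entries near Btg2 and Gnao1 had 4.92 and 3.33, and 4.08 and 2.59. The site near Ntrk2, the gene of the BDNF receptor TrkB, had 3.70 and 2.15. Of the 26 members with an entry, 11 had one active in hindbrain, 8 in midbrain, 7 in neural tube, 7 in heart, 5 in dorsal root ganglion and 2 in limb. Of the 183 shared distal sites with an entry the counts were 74, 77, 42, 36, 26 and 51 in the same order. With TSSs of protein-coding transcripts only the VISTA share of the strongest 500 was 3.40%, and among the strongest 1000 it was 3.10%. The collection was chosen by others for conservation and embryonic marks, and its share of a list depends on which DNA was tested.

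Nearest protein-coding genes were read against fixed gene lists. Of 20698 autosomal protein-coding genes, 430 (2.08%) were nearest to at least 1 member. Of 14 immediate early genes, those switched on quickly by neuronal activity, 5 were: Fos, Fosb, Egr1, Npas4 and Nr4a1. Fos had a site 18509 bp away with densities of 10.4 and 8.63, inside the VISTA entry mm260, which is listed as active in heart and not in forebrain, and another 12228 bp away with 5.88 and 3.64. The Fosb site had 7.22 and 5.08, the Npas4 site 7.83 and 6.97, the Nr4a1 site 8.36 and 4.78, and the Egr1 site 5.01 and 3.49. All 6 sites had a CpG-rich window. Of 20 forebrain and cortex regulators 2 were nearest to a member, Mef2c with 2 sites of 6.99 and 4.63 and of 6.71 and 4.34, and Emx2 with 1 of 3.70 and 1.96. The stronger Mef2c site lay 92250 bp from the Mef2c TSS, in an intron of C130071C03Rik.

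Glial and neuronal lists held 0 to 2 genes nearest to a member, counts too small to set against the 2.08% of all protein-coding genes. Of 14 astrocyte genes, Nfia and Nfib, the nuclear factor I genes of glial fate, each had 1 site, with 8.60 and 5.77 and with 7.17 and 4.71. Of 13 oligodendrocyte genes, Mog, a myelin protein gene, had a site 5451 bp from its TSS with 6.39 and 4.74, and Bcas1 one with 3.56 and 2.42. Of 17 pan-neuronal genes only Ncam1, a cell adhesion gene, was nearest to a member, with 4.68 and 3.97. That site lay 191191 bp from the Ncam1 TSS, and a TSS of Gm47543 was closer, at 35238 bp. None of the 12 excitatory neuron, 14 interneuron, 12 microglia, 12 endothelial and mural, or 14 hindbrain and spinal cord genes was nearest to a member. The nearest gene need not be the gene a site acts on.

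Repeat-masked windows were few among the members, and windows of words repeated elsewhere in the genome had a higher share than over all shared distal sites. More than 50% of the window was repeat-masked at 2 members (0.400%), beside 1.06%, and at 0.200% of the strongest 500 ranked by replicate 2. At 8 members (1.60%) at least 50% of the 31-base words of the window occurred elsewhere in the genome, beside 0.440% of all shared distal sites. The Lars2 site at rank 6 had 72.7% of its words repeated, and rank 21, near Igf2bp3 with densities of 10.9 and 6.66, had 94.2%. A site in an intron of Pcdh9 had 100% with a median of 462 copies, with 3.56 and 2.32. A site in an intron of Pisd-ps2 had 65.3%, with 4.74 and 4.23, and was the member without any footprint in either library. How the authors treated reads that align to several places is not given in the sources used here, so values at these 8 sites are uncertain.

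The tissue label was read against promoter peaks shared by both libraries within 1 kb of a TSS. Such a peak was present at 18 of 20 forebrain and cortex regulators, 17 of 17 pan-neuronal genes, 10 of 12 excitatory neuron genes and 9 of 14 interneuron genes. It was present at 11 of 14 astrocyte and 7 of 13 oligodendrocyte genes. The counts were 2 of 14 hindbrain and spinal cord regulators, 4 of 12 microglia genes and 5 of 12 endothelial and mural genes, and 12184 of all 20698 genes had such a peak. The lists of peaks give no read totals, so depth is unknown. At the low end of each list, the median step between neighbouring distinct densities was 0.0107 in replicate 1 and 0.00648 in replicate 2. Their ratio was 1.65, and whether it reflects depth was not tested.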

How the data were processed

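The peak lists give each peak's cleavage density per library, a signal that the authors scaled to read depth and made from the sequencing reads, per the file headers and the notes deposited with the samples. Hotspots carry the highest −log10 FDR, per the file headers. Footprint lists deposited by the authors hold 0.01 in every p-value cell, a threshold and not a value per footprint, and the per-base tracks hold FDR under 0.05, both made from alignments. Not given in the sources used here were the aligner, the callers, their versions and the treatment of multiply aligned reads and of CAST/EiJ alleles, which may affect densities and footprints where the strains differ. Depth per library is unknown.

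Here, peaks were joined by overlap, ranked, and read against GENCODE vM21, RefSeq GRCm38.p6 and its soft-masked sequence, whose chromosome lengths match mm10. The replicate 2 density of a member was the highest among its overlapping peaks. Windows were 151 bp around midpoints. Intervals are 95% Wilson intervals, cover counting error only and treat sites as independent. Python 3.11.15, numpy 2.4.6, pandas 2.3.3, scipy 1.17.1 and numba 0.67.0 were used, and the functions were tested on simulated data. Since 1 group was measured, no test between groups was possible, and regions are not replicates. The members, gene lists and motifs were chosen with earlier results of these data known. Named sites were the 10 strongest, the extremes of the ratio, the sites around the threshold (1 of them is not reported here), the strongest of each class, motif and gene list, and the strongest with a CTCF consensus; tRNA, VISTA, RefSeq-start and repeated sites were named after their values were seen. Alternatives were a stricter FDR, other overlaps, TSS distances and sets, list sizes, the ranking by replicate 2, single libraries and other windows. The planned read-derived lists were already the main ones, so lists made from alignments were added after the data were seen.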

Additional observations from a re-analysis of the deposited data

How the results depend on the processing

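Of 133 values recomputed under alternatives for 10 results, 104 stayed within the interval of the reported value (for GC, within the SD between the rankings of the 2 libraries) and 29 moved. These counts were partly fixed in advance. The GC range was made from the ranking by replicate 2, so that ranking had to count as moved. For the overlap between the libraries, the ranking by replicate 2 compares the same 2 lists in reverse. None of the alternatives run for the RFX share moved it, and other windows and mismatches were not tried for it. With TSSs of protein-coding transcripts only, the overlap with replicate 2's strongest sites was 77.0%, the CTCF share 8%, the intergenic share 55.6%, the median GC 61.6%, the CpG-rich share 54.8% and the VISTA share 3.40%. Beyond 10 kb of a TSS, 100% had a footprint in both libraries, the median GC was 58.3% and the CpG-rich share 25.6%. The strongest 250 had a median GC of 60.9%, a CpG-rich share of 50.8% and a tRNA share of 6%. The strongest 1000 had an intergenic share of 57.6%, a median GC of 58.3%, a CpG-rich share of 26.7% and a VISTA share of 3.10%. Ranked by replicate 2, the median GC was 58.3%, the CpG-rich share 27.6% and the tRNA share 2.20%. Leaving out a library gave a median GC of 58.3% to 58.9%, a CpG-rich share of 28.0% to 34.2%, a repeat-masked share of 0.200% to 0.400% and a tRNA share of 2.20% to 3.80%. The CTCF share was 27.6% with 1 mismatch, and the footprint share was 100% at the stricter FDR and 98.2% with reciprocal overlap of footprints. The median GC of whole peaks was 57.6%, and that of the lists made from alignments 59.6%. Away from RefSeq starts the CpG-rich share was 29.0%. Without sites of repeated 31-base words, the repeat-masked share was 0% and the CpG-rich share 34.8%. The cause of these shifts was not tested. No paired analysis was possible because there is 1 group.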

Other observations

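The number of members differed between chromosomes. Of the 500, 58 had another member within 10 kb. Chromosome 4 held 49 and chromosome 11 held 46, against 16 on chromosome 3 and 18 on chromosome 5. Per megabase this was 0.377 on chromosome 11, 0.313 on chromosome 4, 0.118 on chromosome 5 and 0.10 on chromosome 3. As a share of each chromosome's shared distal sites, members were 4.42%, 4.48%, 2.11% and 2.28% in the same order.

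Among the genes nearest to several members were Klrb1c with 5, and Actg1, Cstad, Msl1 and Rps24 with 4 each. The 5 members nearest to Klrb1c, a natural killer cell receptor gene, all had a CpG-rich window. The strongest, at chr6:128764195-128764504, had densities of 9.11 in replicate 1 and 7.77 in replicate 2, and 3 of the 5 had 19.0% to 33.1% of their 31-base words repeated elsewhere in the genome. The 4 members nearest to Actg1, the gamma-actin gene, lay 30749 to 41716 bp from its TSS, with densities of 3.65 to 6.28 in replicate 1 and 2.57 to 4.67 in replicate 2. The 4 nearest to Msl1 lay 6481 to 9559 bp from its TSS, with 3.39 to 6.94 and 2.29 to 4.10, and none had a CpG-rich window.

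Some strong sites lay far from any protein-coding TSS. The site at rank 14, at chr12:29290993-29291358, was 237208 bp from the nearest one, that of Myt1l, a neuronal zinc finger gene, with densities of 11.7 and 8.06. A further pair of members had Myt1l as their nearest gene, both in introns, with 6.33 and 5.47 and with 4.06 and 3.34.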
